A study of Ovis aries with 3 samples.

Results

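Midkine (MDK), its paralogue pleiotrophin (PTN) and 5 receptors for these ligands, PTPRZ1, ALK, LRP1, SDC1 and SDC4, were followed across whole sheep embryos. The 7 genes were chosen by name from the 26478 genes listed in each library, and each name was present once, as ENSOARG00020022725 (MDK), ENSOARG00020001975 (PTN), ENSOARG00020002274 (PTPRZ1), ENSOARG00020005205 (ALK), ENSOARG00020001685 (LRP1), ENSOARG00020018247 (SDC1) and ENSOARG00020012987 (SDC4). Single-cell RNA sequencing with a 3′ kit had been performed on 3 libraries of dissociated embryos, the first from a Hulunbuir short-tailed sheep embryo at embryonic day 19 (E19 HSTS), the second from a Hu sheep embryo at embryonic day 19 (E19 HS) and the third from Hu sheep at embryonic day 16 (E16 HS). HSTS is a breed that carries a missense change in the T (Brachyury) gene, a transcription factor of mesoderm and notochord, and HS carries the wild-type allele. Oestrus of the ewes had been synchronised with progesterone sponges followed by gonadotropin in both breeds, and the labels name no treatment of the embryos. The E16 HS label names 1 embryo whereas the study's methods name 3, so whether that library pools embryos could not be settled. All 3 libraries came from whole embryos, so every cell type that survived dissociation could be present. With 1 library per condition there was no spread between embryos, so no test was made. Where a sentence gives 3 values with no library beside them, they stand for E19 HSTS, then E19 HS, then E16 HS. Breed and individual embryo cannot be told apart, nor can day and individual embryo.

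Midkine and pleiotrophin are small secreted growth factors that bind heparin and are widely produced in mid-gestation embryos, in epithelia, mesenchyme and the nervous system. They bind the sulfated sugar chains of cell-surface proteoglycans such as the syndecans SDC1 and SDC4, and the chondroitin sulfate chains of PTPRZ1, a receptor-type tyrosine phosphatase of neural progenitors and glia. LRP1 is a large endocytic receptor of the low-density lipoprotein receptor family, and ALK is a receptor tyrosine kinase of the developing nervous system whose direct ligands are the ALKAL proteins. A transcript level of a ligand or receptor does not measure the protein or the signal.

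After filtering, 9618, 10629 and 11329 cells remained, with a median of 8675, 6900 and 9046 unique molecular identifiers (UMIs, each counted transcript) per cell. Between 31 and 37 cell barcodes were shared by any pair of libraries. The cells fell into 18 clusters, of which 15 were named from marker genes and merged into 12 classes. 3 clusters stayed unnamed. A class was used in a library when it held at least 50 cells there, which left out the myeloid-like class throughout, the caudal progenitor-like and mesenchyme-like classes in E19 HSTS, and the early neuron-like and cardiomyocyte-like classes in E16 HS. The gut-like class was led by EPCAM, CDH1 and CLDN7 but also by TFAP2A and DLX5 of surface ectoderm, and part of the somite-like class was led by POSTN and PRRX1 beside MEOX2 and TWIST1. The blood progenitor-like class held 2637, 1421 and 2003 cells after a red cell lysis step, at a median of 17493, 17569 and 13945 UMIs, and was used as the level that RNA free in the suspension can give. It held 45.6%, 28.8% and 24.5% of all UMIs in these libraries. The blood cluster with 1975 of the 2003 E16 HS cells had none of the blood markers among its 10 leading genes, while 8 of them were detected in at least 10% of its cells. In the blood clusters mostly from E19 the leading genes included metallothioneins and heat shock genes.

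Levels are given in CPM, the UMIs of a gene divided by all UMIs of the cells summed and scaled to 1000000, with an exact 95% Poisson interval where one is shown, and shares of positive cells have exact 95% binomial (Clopper-Pearson) intervals. Both cover counting error only. To compare shares at 1 depth, each cell was also thinned at random to 3000 UMIs, leaving out 1106, 1345 and 1317 shallower cells. Counts from the 3′ end do not scale with transcript length, and capture differs between genes, so the levels were compared between cells and not ranked between genes.

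Midkine transcripts were found in most cells outside the blood, with the highest level in the somite-like class of each library at the main clustering. Over all kept cells MDK stood at 1534 (1526 to 1541), 1971 (1962 to 1981) and 1984 (1976 to 1993) CPM. A UMI of MDK was present in 79.5%, 89.1% and 90.6% of cells. At 3000 UMIs per cell the shares were 72 (71.0 to 72.9)%, 85.4 (84.6 to 86.1)% and 81.0 (80.2 to 81.8)%. The E19 HSTS share was the lowest of the 3. Without the blood progenitor-like cells the thinned shares became 97.7%, 98.2% and 94.9%, so that the E19 libraries came within 1 percentage point and E16 HS was the lowest. Positive cells held on average 18.5 UMIs of MDK in E19 HS and 21.9 in E16 HS, and the highest single cell held 173 in E16 HS.

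The somite-like class was named from genes of paraxial mesoderm, which gives rise to vertebrae, muscle and dermis, but it was mixed. At a finer clustering (resolution 1.0) parts of it were named mesenchyme-like, skeletal myogenic-like and neural crest-like. The highest MDK then lay in neural crest-like cells of E19 HSTS (3475) and skeletal myogenic-like cells of E19 HS (3288). In the main somite-like class MDK reached 3407 (3383 to 3430.2), 3268 (3246 to 3290.2) and 3864 (3839 to 3889) CPM. This class held 53.1%, 48.6% and 40.4% of the MDK UMIs, with 31.5%, 35.5% and 25.4% of the cells. The gut-like class, an epithelium, followed in both E19 libraries with 2913 in E19 HSTS and 2829.9 in E19 HS, and stood at 3117 in E16 HS. In E16 HS the caudal progenitor-like class, named from genes such as T, CDX2 and CDX4, came second at 3461 (3427 to 3496). In E19 HS its level of 2768 (2655 to 2886) could not be separated from the gut-like or the haematoendothelial-like class, the latter at 2753 (2683 to 2823). The haematoendothelial-like level was 2654 in E19 HSTS and 3068 in E16 HS.

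Neural cells came next in the E19 libraries, while in E16 HS the urogenital-like class lay above the spinal cord-like one. The spinal cord-like class, progenitors that carry PAX6 and SOX2, held 2404, 2532 and 2679 CPM of MDK. The early neuron-like class, marked by neurofilament genes, held 2345 (2272 to 2419) in E19 HSTS, with an interval overlapping the spinal cord-like one, and 2642 (2562 to 2724) in E19 HS. Lower levels were found in extraembryonic endoderm-like cells, which carry plasma protein transcripts, with 1556, 1452 and 1482. Cardiomyocyte-like cells held 901 (845 to 959.9) in E19 HSTS and 1002 (935 to 1073) in E19 HS. Mesenchyme-like cells, led by collagen genes, held 1119.6 (1039.9 to 1204) in E19 HS and 758 (746 to 769) in E16 HS. The urogenital-like class, nephric epithelium, was the one in which the E16 library stood furthest from the E19 libraries, with 2973 against 1332 in E19 HSTS and 1546 in E19 HS.

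Blood progenitor-like cells held 121 (118 to 125), 126 (122 to 131) and 209.6 (204 to 215) CPM of MDK, and 13.1%, 14.0% and 22.5% of them were positive at 3000 UMIs. In the somite-like class the same thinned share was 99.7% in E19 HSTS, at a median of 7356 UMIs before thinning. The lowest thinned share outside the blood was 30 of 50 extraembryonic endoderm-like cells of E16 HS, and each of the other used classes also lay above the blood share of its library. Within the blood class the level was uneven. In E19 HSTS it was 198 in one cluster of 1278 cells and 22.4 in another of 1256 cells, and the same clusters held 195 and 28.3 in E19 HS.

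Pleiotrophin was found in fewer cells and varied more between classes. Among classes of at least 50 cells its highest levels lay in mesenchyme-like cells of E19 HS and in spinal cord-like and somite-like cells. Over all kept cells PTN stood at 402 (398 to 406), 520.0 (515 to 525) and 297 (294 to 300.3) CPM. The share of positive cells was 49.7%, 55.8% and 55.6%. At 3000 UMIs per cell it was 39.9 (38.9 to 40.9)%, 46.3 (45.3 to 47.3)% and 38.7 (37.8 to 39.7)%. E19 HS was the highest on the level and on the thinned share, whereas before thinning E16 HS matched it in share. Without the blood cells the thinned shares were 55.5%, 53.7% and 47.2%.

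The spinal cord-like class held 869.8 (854 to 886), 903 (889 to 917) and 852 (829.9 to 875) CPM of PTN. The somite-like class held 886 (875 to 899) and 863 (851 to 874) in the E19 libraries and 595 (585 to 605) in E16 HS. Its level in E19 HSTS could not be separated from the spinal cord-like one. In E19 HS the 69 mesenchyme-like cells reached 1831 (1729 to 1938), whereas the 1560 mesenchyme-like cells of E16 HS held 293 (286 to 301). Most cells of that cluster came from E16 HS. The gut-like level was 676, 502 and 372. The caudal progenitor-like level was 388 (346 to 434) in E19 HS and 240.3 (231 to 249.6) in E16 HS.

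Early neuron-like cells held less PTN than spinal cord-like cells, at 132 CPM in E19 HSTS and 178 in E19 HS. Cardiomyocyte-like cells, marked by myosin and troponin genes, held 302 (270.3 to 337) in E19 HSTS and 512 (464 to 563) in E19 HS, and haematoendothelial-like cells 213 (190.3 to 237), 263 (241 to 285) and 139 (106 to 179) in the 3 libraries. Urogenital-like cells held 121, 100.3 and 129, and extraembryonic endoderm-like cells 62.9, 66.7 and 75.9, with overlapping intervals in the latter. The blood progenitor-like class held 31.1, 27.2 and 21.6. At 3000 UMIs 4.17%, 4.96% and 2.97% of blood cells had a UMI of PTN, against 13.4% and 15.3% of extraembryonic endoderm-like cells at E19.

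The somite-like class was split at a finer clustering (resolution 1.0), and PTN differed between the parts. Cells then named mesenchyme-like, of which 963 in E19 HS came from the somite-like and 69 from the mesenchyme-like class, held 2093 CPM of PTN in E19 HSTS and 1946 in E19 HS. Cells then named skeletal myogenic-like held 115 and 125. The remaining somite-like cells held 701 and 636. MDK in the same 3 groups of E19 HS was 3285, 3288 and 3177, close to even. These groups were made from the same cells, with the members that were among the variable genes left out of the clustering. Their levels are a description.

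**Figure D1:**
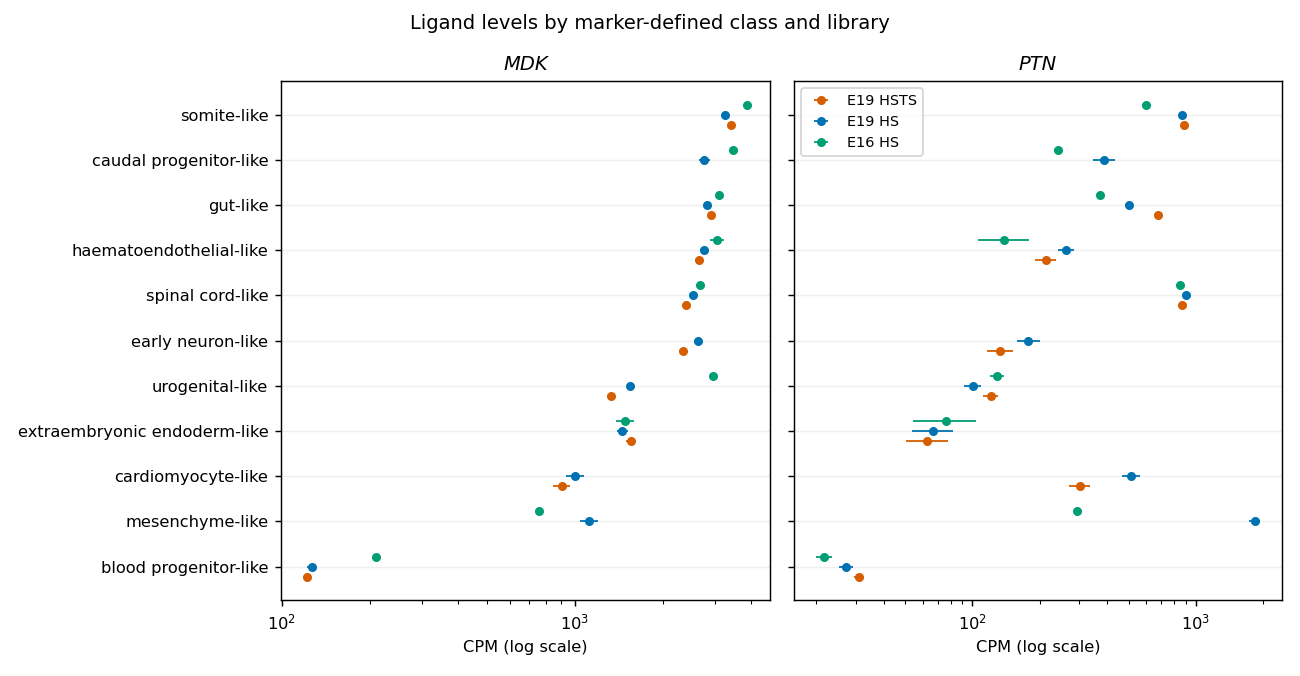
Levels of MDK (left) and PTN (right) in CPM on a log axis, by marker-defined class, with 1 point per library and exact 95% Poisson intervals that cover counting error only. Classes are ordered by mean MDK, and a class with under 50 cells in a library is left out there. MDK in the blood progenitor-like class (121 to 209.6) lay below every other class, and PTN spread from 21.6 in blood cells of E16 HS to 1831 in mesenchyme-like cells of E19 HS.

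PTN was rarely found without MDK. Outside the blood class MDK was found in 97.7%, 98.2% and 94.9% of cells, which left little room for PTN alone. At 3000 UMIs per cell both ligands were detected in 39.4%, 45.8% and 37.2% of cells, MDK alone in 32.6%, 39.5% and 43.8%, and PTN alone in 0.529%, 0.463% and 1.53%. In the spinal cord-like class of E19 HS, 1531 cells held both, and the product of the shares of each gene gave 1532. MDK was found in 99.9% of these cells, so the product had to fall near the count and cannot show independence. PTN alone was most frequent in mesenchyme-like cells, with 19.4% in E19 HS and 8.88% in E16 HS. In blood progenitor-like cells of E19 HSTS 89 cells held both, where the product of the shares gave 14.1.

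**Figure D2:**
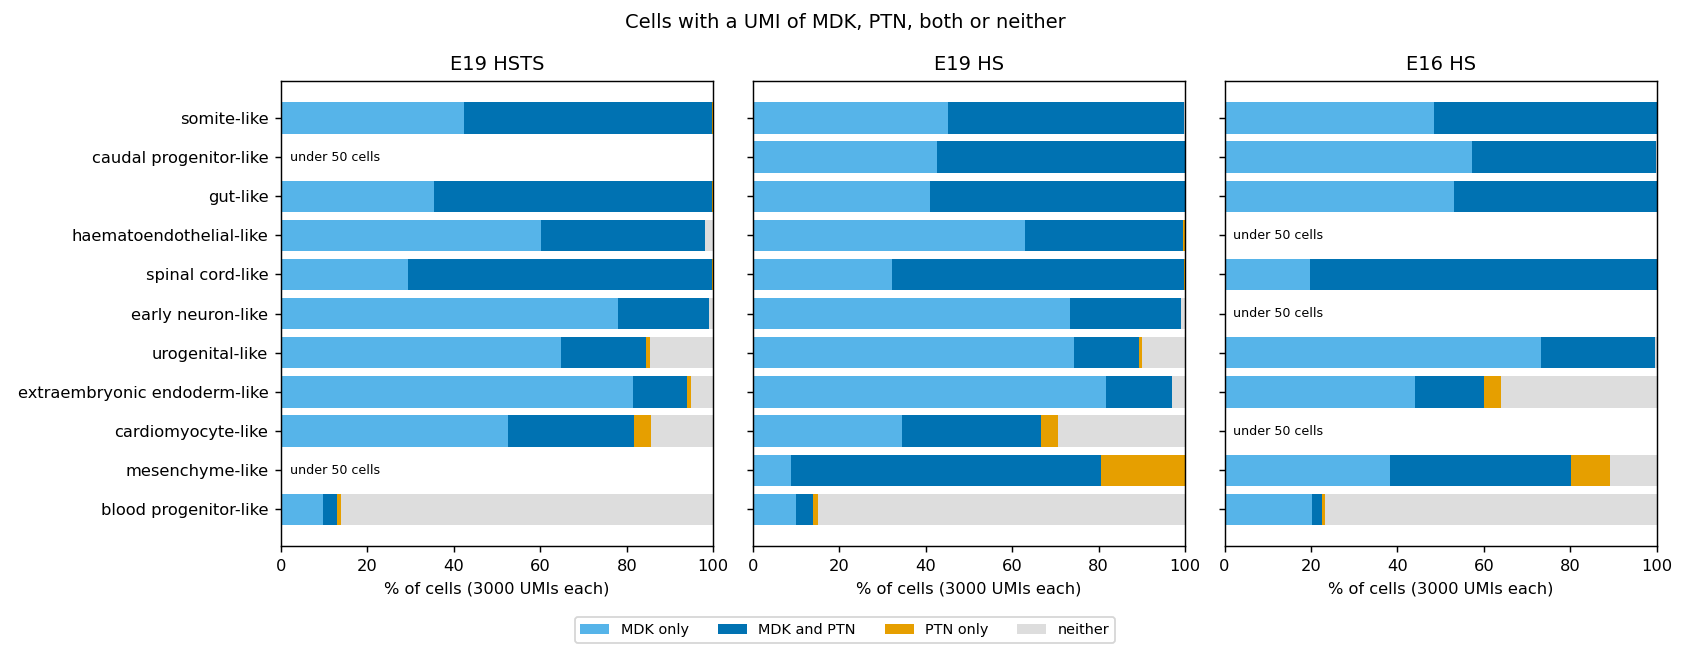
Share of cells of each class (in percent, each cell thinned to 3000 UMIs) with a UMI of MDK only, of both ligands, of PTN only or of neither, by library. Classes with under 50 cells left are marked. Both ligands were found in 80.2% of spinal cord-like cells of E16 HS, and neither in 86.2% of blood progenitor-like cells of E19 HSTS.

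The receptors were sparse. PTPRZ1 had 414, 335 and 144 UMIs, LRP1 860, 799 and 1830, SDC1 112, 108 and 137, and SDC4 340, 411 and 670. ALK had 6 UMIs in E19 HSTS, none in E19 HS and 2 in E16 HS. For ALK, 0 of 10629 cells in E19 HS with a UMI allows a share of such cells of up to 0.0282% by 3 counts, with an exact upper bound of 0.0347%, and no fold is given. Of its 8 UMIs, 3 lay in somite-like cells of E19 HSTS, and no class level is given for ALK at this depth.

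PTPRZ1 was concentrated in the spinal cord-like class. That class held 77.3%, 81.5% and 52.1% of the PTPRZ1 UMIs, with 17.3%, 23.0% and 6.95% of the cells. Its level there was 24.8 (22.2 to 27.7), 15.2 (13.4 to 17.1) and 11.4 (9.0 to 14.3) CPM. The intervals of E19 HSTS and E19 HS did not overlap, and those of E19 HS and E16 HS did. Positive cells made up 14.0%, 9.55% and 7.75% of the class, and 7.08%, 4.46% and 2.44% at 3000 UMIs.

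Early neuron-like cells had 10 UMIs of PTPRZ1 in E19 HSTS, or 6.02 (2.89 to 11.1) CPM, and 2 in E19 HS, or 1.29 (0.157 to 4.68). The somite-like level was 2.10 (1.56 to 2.77), 1.04 (0.685 to 1.51) and 1.96 (1.43 to 2.61). At resolution 1.0 a neural crest-like group, the migratory lineage of glia and pigment cells, emerged with 16.0, 8.68 and 11.4, and the remaining somite-like cells held 1.60, 0.597 and 0.683. Blood progenitor-like cells held 0.286, 0.157 and 0.0361, from 13, 4 and 1 UMIs.

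LRP1 was spread over mesodermal and epithelial classes and low in endothelium and blood. In mesenchyme-like cells it stood at 36.8 (23.6 to 54.8) CPM in E19 HS, from 24 UMIs, and 34.7 (32.3 to 37.3) in E16 HS. In somite-like cells it stood at 22.7 (20.8 to 24.7), 17.7 (16.2 to 19.4) and 25.6 (23.6 to 27.8), and this class held 62.9%, 57.7% and 32.9% of its UMIs. In E16 HS the mesenchyme-like class held 41.4% of LRP1 UMIs with 13.8% of cells. The gut-like level was 17.1 (13.3 to 21.6), 13.3 (10.2 to 17.0) and 22.6 (18.9 to 26.8). Extraembryonic endoderm-like cells held 21.7 (14.6 to 31.0) in E19 HSTS and 14.5 (8.85 to 22.4) in E19 HS, and only 2 UMIs in E16 HS. Spinal cord-like cells were lower, at 8.76, 7.16 and 7.02. Haematoendothelial-like cells had 1, 3 and 1 UMIs, with intervals overlapping the blood progenitor-like levels of 0.617, 0.704 and 1.05. The highest LRP1 class of the E19 libraries changed with the setting. In E19 HS it was somite-like at resolution 1.0 (19.4) and with that library clustered alone (18.4). In E19 HSTS it was mesenchyme-like at resolution 1.0 (25.9) and cardiomyocyte-like at 3000 UMIs (26.3).

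SDC4 was highest in extraembryonic endoderm-like cells, at 28.9 (20.7 to 39.4), 36.2 (26.9 to 47.8) and 24.7 (13.1 to 42.2) CPM, from 40, 50 and 13 UMIs. Urogenital-like cells held 12.4 (9.63 to 15.8), 13.7 (10.7 to 17.4) and 11.9 (9.29 to 14.9) and gut-like cells 8.54 (5.95 to 11.9), 9.94 (7.30 to 13.2) and 11 (8.45 to 14.0), and these classes overlapped in each library. Mesenchyme-like cells stood at 13.8 (6.31 to 26.2) in E19 HS, from 9 UMIs, beside the urogenital-like level, and at 6.60 (5.57 to 7.77) in E16 HS. The extraembryonic endoderm-like intervals lay above those of the next class in both E19 libraries and overlapped it in E16 HS. At 3000 UMIs 0% of the extraembryonic endoderm-like cells of E16 HS had a UMI of SDC4. Among classes of at least 50 cells, urogenital-like cells of E16 HS were then highest, as with that library clustered alone. Without the highest doublet scores gut-like cells of E16 HS were highest. An unnamed cluster of 331 E16 HS cells led by the uroplakin UPK3A and by KRT7 held 21.0 CPM of SDC4, with 25.1% of cells positive. Blood progenitor-like cells held 1.52 (1.18 to 1.92), 1.37 (0.954 to 1.90) and 2.82 (2.23 to 3.51). At 3000 UMIs 0.541%, 0.496% and 0.884% of blood cells had a UMI of SDC4, against 0.467%, 0.706% and 0.543% of spinal cord-like cells. The thinned spinal cord-like share lay below the blood share in E19 HSTS and E16 HS, and SDC4 in those cells could not be told apart from blood. In E19 HSTS the spinal cord-like level of 1.94 (1.25 to 2.86) overlapped the blood level. SDC4 was 1.68 and 1.34 in the E19 HSTS blood clusters of 1278 and 1256 cells, where MDK was 198 and 22.4. Whether SDC4 in blood cells was free RNA was not tested. In E19 HS the spinal cord-like level of 3.05 (2.30 to 3.97) lay above the blood level, as did the thinned share. The haematoendothelial-like class had 2 and 3 UMIs at E19 and none at E16.

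SDC1 was sparse, with a UMI in 1.14%, 1.01% and 1.18% of cells. Its highest levels were 4.39 (2.60 to 6.94) in gut-like cells of E19 HSTS, 4.97 (1.36 to 12.7) in caudal progenitor-like cells of E19 HS, from 4 UMIs, and 2.42 (1.60 to 3.52) in caudal progenitor-like cells of E16 HS. The somite-like levels of 2.31 (1.74 to 3.01), 2.00 (1.49 to 2.62) and 1.66 (1.18 to 2.27) overlapped these in E19 HS and E16 HS and, by a narrow margin, in E19 HSTS. No order of classes was drawn for SDC1. Blood progenitor-like cells held 2, 1 and 3 UMIs, or at most 0.108 CPM.

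**Figure D3:**
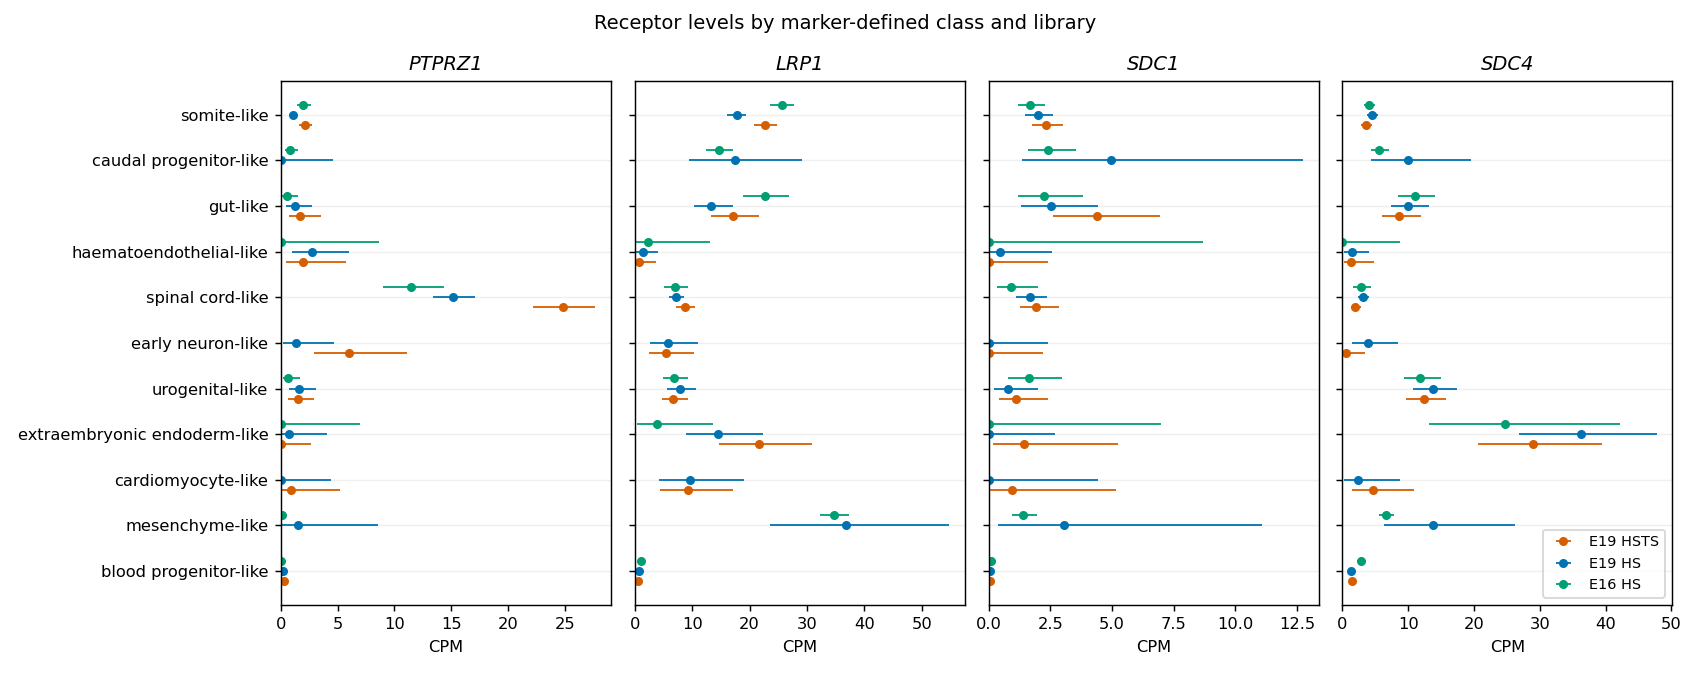
Levels of 4 receptors in CPM on linear axes from 0, by class in the order of mean MDK, with 1 point per library and exact 95% Poisson intervals that cover counting error only. PTPRZ1 stood out in the spinal cord-like class (24.8 in E19 HSTS, 11.4 in E16 HS) and SDC4 in the extraembryonic endoderm-like class (36.2 in E19 HS), while the SDC1 intervals overlapped across most classes.

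At 3000 UMIs per cell, MDK was detected in 85.6%, 91.6% and 84.4% of SDC4-positive cells, against 71.8%, 85.3% and 80.9% of other cells. For LRP1-positive cells the MDK share was 99.3%, 97.7% and 92.4%, against 71.1%, 85.0% and 80.4% of other cells. The other cells include the blood progenitor-like class. Without that class MDK was found in 97.7%, 98.2% and 94.9% of all cells. SDC4-positive cells lay below these shares in each library, as did LRP1-positive cells in E19 HS and E16 HS. MDK was found in 134 of 135, 115 of 115 and 29 of 29 PTPRZ1-positive cells, and in 99.8%, 99.9% and 100.0% of all spinal cord-like cells, so the class that held most PTPRZ1 left no room for a difference. PTN was detected in 80.0%, 80.9% and 93.1% of PTPRZ1-positive cells, against 39.3%, 45.9% and 38.6% of other cells. Of all spinal cord-like cells, 70.7%, 67.7% and 80.2% had a UMI of PTN, so much of this gap lay between classes. For LRP1-positive cells the PTN share was 52.7%, 55.7% and 49.2%, against 39.5%, 46.0% and 38.2% of other cells. For SDC4-positive cells it was 35.6%, 44.3% and 31.7%, against 39.9%, 46.3% and 38.9%. The intervals for SDC4-positive cells held the share of other cells in each library. Without the blood class 55.5%, 53.7% and 47.2% of all cells had a UMI of PTN. The LRP1-positive intervals held these shares in each library, and the SDC4-positive intervals lay below them. By class, PTPRZ1 and PTN were both high in spinal cord-like cells. At E19 SDC4 was highest in extraembryonic endoderm-like cells, where PTN was low. A receptor was detected in 6.29%, 6.14% and 6.94% of cells at this depth, and more than 1 receptor in 0.0470%, 0.140% and 0.170%.

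**Figure D4:**
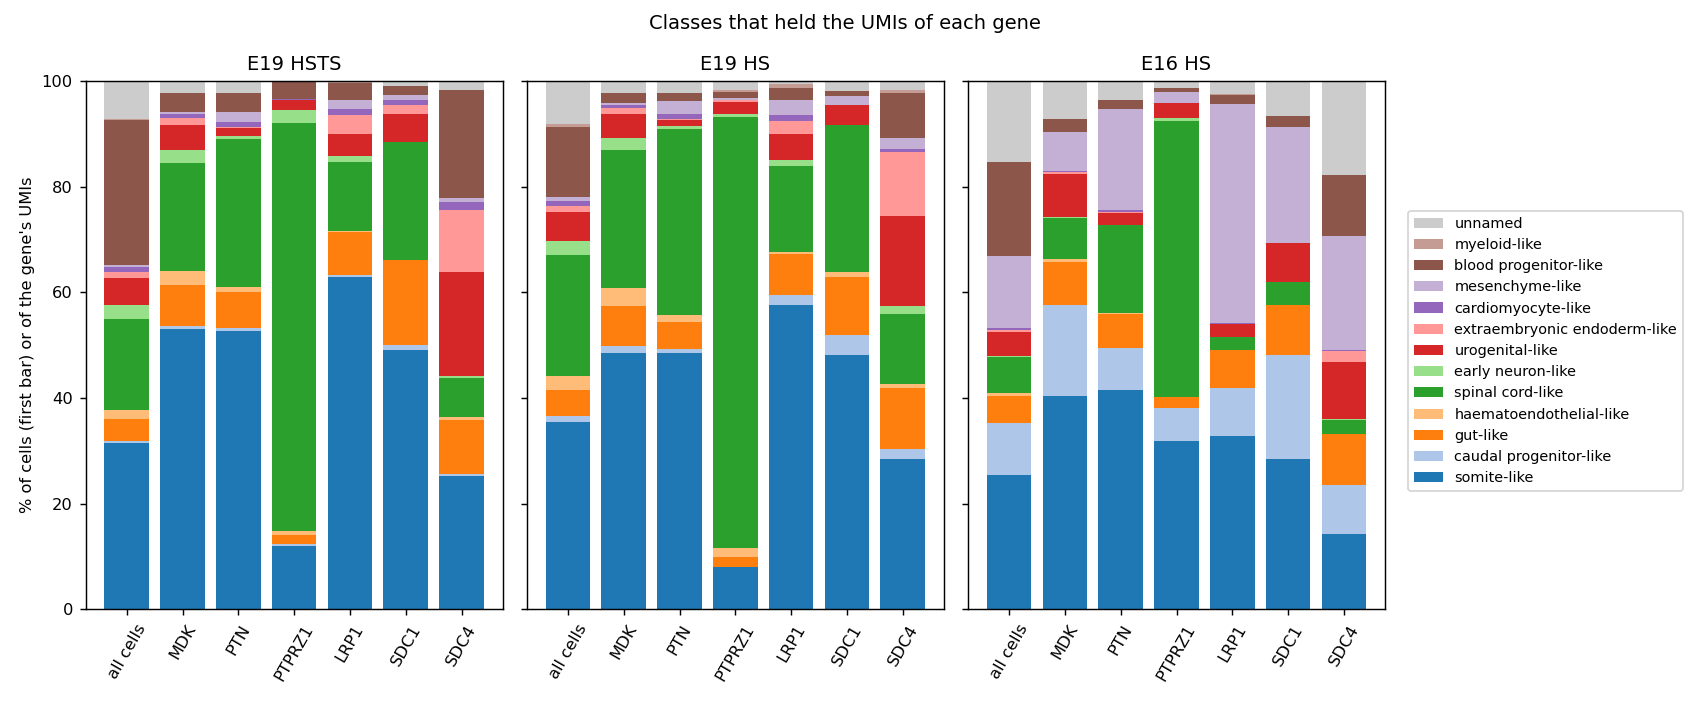
Share of each gene's UMIs held by each class (in percent, bars from 0 to 100), with the share of cells in the first bar, by library. The spinal cord-like class held 81.5% of PTPRZ1 UMIs in E19 HS, and the mesenchyme-like class held 41.4% of LRP1 UMIs in E16 HS.

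E19 HSTS was set against E19 HS to compare breeds, which differ in tail length and in the T allele, at the same day. A gene counted as changed when the ratio of its CPM passed 1.5-fold and 1 library had at least 50 of its UMIs. Neither ligand nor any receptor passed this over all kept cells, where 0 of 6 tested members were called against 10.6% of the 11437 genes tested (4.13% higher and 6.46% lower), and ALK had too few UMIs. MDK stood at 0.778 and PTN at 0.772 of their E19 HS levels, below the median gene at 0.966. The ratio was 1.10 (95% interval 0.951 to 1.28) for PTPRZ1, 0.959 (95% interval 0.870 to 1.06) for LRP1, 0.924 (95% interval 0.703 to 1.22) for SDC1 and 0.737 (95% interval 0.637 to 0.853) for SDC4. The median over the 6 was 0.851. Blood progenitor-like cells made up 27.4% of E19 HSTS cells and 13.4% of E19 HS cells. Without them MDK and PTN came to 1.000 (95% interval 0.993 to 1.01) and 0.990 (95% interval 0.977 to 1.00), PTPRZ1 to 1.41 (95% interval 1.22 to 1.64), LRP1 to 1.24 (95% interval 1.13 to 1.37), SDC1 to 1.20 (95% interval 0.910 to 1.58) and SDC4 to 0.841 (95% interval 0.716 to 0.985). The median gene then moved to 1.16, and relative to it SDC4 stood at 0.725, PTN at 0.854, MDK at 0.863, SDC1 at 1.03, LRP1 at 1.07 and PTPRZ1 at 1.22. Again 0 of 6 were called, against 11.9% of genes, 9.37% higher and 2.54% lower.

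Within classes, PTPRZ1 was called higher in E19 HSTS in its main class. In spinal cord-like cells 320 UMIs in 1665 cells of E19 HSTS stood against 273 in 2440 cells of E19 HS, a ratio of 1.64 (95% interval 1.39 to 1.93). In this class 13.5% of 7877 tested genes were called higher in E19 HSTS, and the median gene was at 1.16. In somite-like cells the PTPRZ1 ratio was 2.02 (95% interval 1.24 to 3.36), from 50 against 27 UMIs, where 11.9% of genes were called higher. It was 1 of 6 members tested there, and relative to the median gene it stood at 1.70. With the neural crest-like cells set apart at resolution 1.0, the somite-like levels were 1.60 and 0.597, and the neural crest-like levels 16.0 and 8.68. SDC4 in spinal cord-like cells had 25 against 55 UMIs, a ratio of 0.635 (95% interval 0.379 to 1.04) that passed the fold. Its interval held 1, and the E19 HSTS level overlapped that of the blood class. 2.63% of genes were called lower there.

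Within classes of the E19 libraries the MDK ratios spread less than those of PTN. MDK lay between 0.861 in urogenital-like and 1.07 in extraembryonic endoderm-like cells and was called in none of 9 classes. No member was called in the blood progenitor-like, early neuron-like, extraembryonic endoderm-like, gut-like, haematoendothelial-like or urogenital-like class, where 20.2%, 11.2%, 16.8%, 14.3%, 10.3% and 10.8% of genes were called. PTN was called in 1 of 9, the cardiomyocyte-like class, at 0.591 (95% interval 0.510 to 0.684) from 325 UMIs in 82 cells against 425 in 112 cells. In that class 3.23% of 1979 genes were called lower, and its median depth was 12549.5 UMIs per cell for HSTS against 4909 for HS. The part of depth in this ratio was not tested. PTN was at 1.35 (95% interval 1.28 to 1.42) in gut-like cells and 0.744 (95% interval 0.621 to 0.892) in early neuron-like cells, neither past 1.5-fold.

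E16 HS was set against E19 HS to compare days within a breed, as E16 over E19. PTN and PTPRZ1 were lower at E16 and LRP1 was higher, so 3 of 6 tested members were called. Over all 11745 genes tested 33% were called, 22.7% higher and 10.3% lower, with the median gene at 1.19. Under scaling by trimmed mean of M values (TMM) the split was 12.2% higher and 14.8% lower and the median gene moved from 0.25 to 0.04 on the log2 scale. MDK stood at 1.01 (95% interval 1.00 to 1.01), PTN at 0.571 (95% interval 0.563 to 0.579), PTPRZ1 at 0.337 (95% interval 0.275 to 0.411), LRP1 at 1.80 (95% interval 1.65 to 1.95), SDC1 at 0.994 (95% interval 0.767 to 1.29) and SDC4 at 1.28 (95% interval 1.13 to 1.45). Without blood cells the same 3 were called, PTN at 0.537, PTPRZ1 at 0.319 and LRP1 at 1.70, against 29.4% of genes, 16.6% higher and 12.8% lower.

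**Figure D5:**
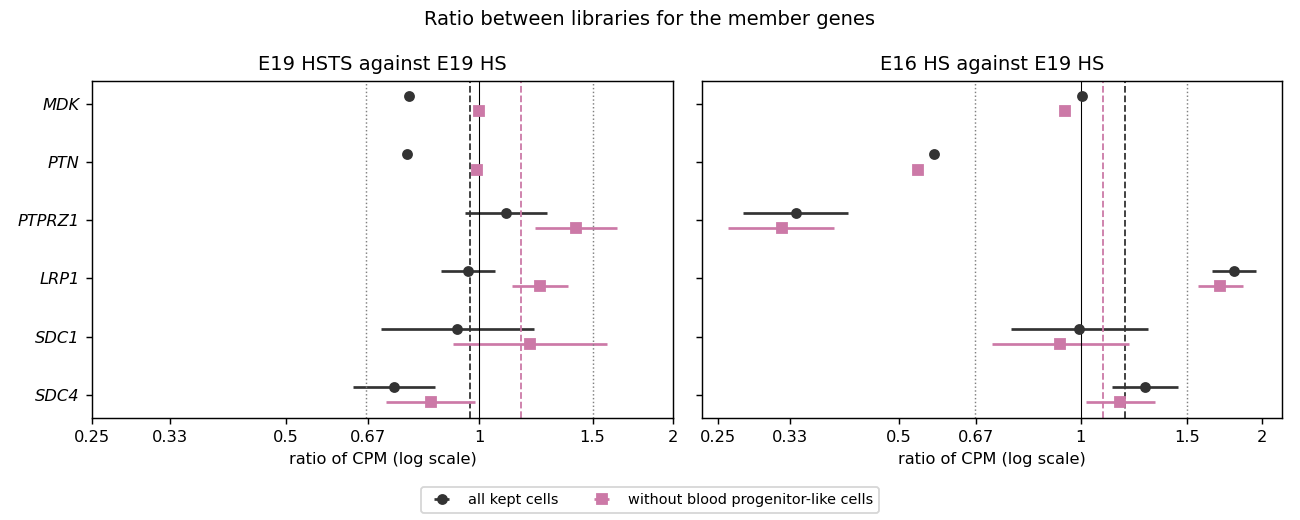
Ratio of CPM between libraries (log axis) for 6 members, E19 HSTS over E19 HS on the left and E16 HS over E19 HS on the right. Circles are all kept cells, squares are without blood progenitor-like cells, bars are exact 95% intervals for counting error, dotted lines mark 1.5-fold in either direction and dashed lines the median gene of each scope. On the left no point passed 1.5-fold, and on the right PTN (0.571), PTPRZ1 (0.337) and LRP1 (1.80) did.

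Spinal cord-like cells numbered 787 in E16 HS and 2440 in E19 HS, and within that class PTPRZ1 stood at 0.755 (95% interval 0.577 to 0.978), from 75 against 273 UMIs, which was not past 1.5-fold. Of 5 members tested in this class none was called, with 20.2% of genes called. The same held for the tested members in somite-like and extraembryonic endoderm-like cells, with 24.5% and 36.6% of genes called. Mesenchyme-like cells numbered 1560 in E16 HS and 69 in E19 HS, and different cells made up the class at each day, since at resolution 1.0 a cluster of it held 1293 E16 HS cells and 2 E19 HS cells. Within this class LRP1 stood at 0.944 (95% interval 0.629 to 1.48), in somite-like cells at 1.44 (95% interval 1.28 to 1.63) and in gut-like cells at 1.70 (95% interval 1.25 to 2.33). Only the last was past 1.5-fold, where 16.9% of genes were higher. Shares of classes and levels within them were both measured, and their parts in the whole-library ratios were not tested.

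PTN had an interval below 1 in 7 of 9 classes at E16, the nearest to 1 being the spinal cord-like class at 0.944 (95% interval 0.916 to 0.973). It was called in 3 of the 7, the mesenchyme-like class at 0.160 (95% interval 0.151 to 0.171) over those unlike cells, the haematoendothelial-like class at 0.529 (95% interval 0.397 to 0.692) and the caudal progenitor-like class at 0.619 (95% interval 0.551 to 0.699). The share of genes called lower was 18.6%, 14.3% and 11% in these classes. In somite-like cells the PTN ratio was 0.689 (95% interval 0.675 to 0.704) and in gut-like cells 0.742 (95% interval 0.699 to 0.786). In urogenital-like cells it was 1.28 (95% interval 1.15 to 1.44), above 1.

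MDK was not past 1.5-fold over whole libraries, at 1.01 with and 0.942 without blood cells. Within classes it was called higher at E16 in urogenital-like cells, at 1.92 (95% interval 1.87 to 1.97) from 18308 UMIs in 504 cells against 7882 in 585 cells, where 18% of genes were called higher and the median gene was at 1.11. It was also called in blood progenitor-like cells at 1.66 (95% interval 1.59 to 1.73), and SDC4 there at 2.06 (95% interval 1.36 to 3.16). In that class 71.4% of genes were called higher with the median gene at 1.83, and different clusters held most of the class at each day. Both ratios lay near that median. In mesenchyme-like cells, which differed between days as above, MDK was at 0.677 (95% interval 0.628 to 0.730). Further members past 1.5-fold were SDC4 in mesenchyme-like cells at 0.478 (95% interval 0.245 to 1.07) and in caudal progenitor-like cells at 0.559 (95% interval 0.267 to 1.35), from 9 and 8 UMIs in E19 HS, and both intervals held 1.

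A wider list of 53 genes was read beside the members, with other reported partners of MDK and PTN, ALK ligands, receptor chaperones and enzymes that build heparan and chondroitin sulfate chains. 42 were listed in the files. In E19 HSTS against E19 HS 34 passed the minimum of UMIs, 1 was called higher and 0 lower, with a median ratio of 0.995, against 4.13% higher and 6.46% lower of all genes. That gene was HS2ST1, which adds sulfate to heparan chains, at 1.63 (1.47 to 1.81), with its 95% interval, from 1069 against 584 UMIs. Without blood cells 5 were called higher, HS2ST1 at 2.00 (1.80 to 2.23), SULF1, GPC3 and ITGA4 and, named after its value was seen, HS6ST2, which is 14.7% of the 34 against 9.37% of all genes called higher, with a median ratio of 1.21 beside 1.16. In E16 HS against E19 HS 35 were tested, 3 were higher and 4 lower, which is 7 of 35 against 33% of all genes. Without blood cells HS2ST1 alone was higher and 6 were lower, where 16.6% of all genes were higher and 12.8% lower. Higher at E16 were HS2ST1 at 1.71 (1.55 to 1.89), SULF1, which removes sulfate from heparan chains, at 1.56 (1.42 to 1.73), and the laminin-binding integrin subunit ITGA6 at 1.53 (1.46 to 1.62). Lower were LRP2, an endocytic receptor of the LRP1 family, at 0.469 (0.430 to 0.512) and, named after their values were seen, XYLT1, GPC2 and SDC3 at 0.527 (0.346 to 0.795), 0.571 (0.414 to 0.786) and 0.664 (0.528 to 0.834).

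Of the integrin and chondroitin sulfate proteoglycan partners, ITGB1, an integrin subunit, and VCAN (versican) were named. ITGB1 had 158, 177 and 155 CPM, and VCAN 226, 226 and 265. ITGA6, which pairs with ITGB1, had 24.4, 23.6 and 36.2. None of these passed 1.5-fold between the E19 libraries.

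Genes with the most similar pattern were sought for each member over 29 points, each a class in a library, among 7544 named genes with no fewer than 500 UMIs, by Pearson correlation of log2(CPM + 10). The points share 3 libraries, and the correlations describe them only. For MDK these were RNF130 (r = 0.95), HNRNPH3, NUB1, SREK1 and CHD1. For PTN they were PLTP (r = 0.85), ZNF277, IFT43, SVBP and GNPDA1. For PTPRZ1 they were NDP (r = 0.94), SCUBE2, JAM2, FAM181B and USP44, the first a secreted ligand of Frizzled receptors. For LRP1 they were DSG2 (r = 0.83), COL11A1, PRKG2, KRT8 and KRT19, with simple keratins among them. For SDC4 they were ELF5 (r = 0.89), an epithelial transcription factor, BAIAP2L1, GRAMD1C and CPPED1. SDC1 and ALK were themselves below that minimum, and no list is given for them. Among the members the correlation was 0.62 for MDK with PTN and 0.45 for PTN with PTPRZ1, and SDC4 was at -0.16 with PTN and -0.31 with PTPRZ1.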

How the data were processed

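The deposited UMI counts per gene and cell of 3 libraries were made by the authors with Cell Ranger 6.1.2 against an Ovis aries genome, as raw counts that were not normalised. All 26478 genes were listed, 16670 with a symbol. The study's clustering was not used. Cells were kept with the filters stated in the study's methods, namely 200 to 6000 genes, 1000 to 30000 UMIs and a mitochondrial share of 10% or less, with 11114, 12064 and 12645 cells before and 9618, 10629 and 11329 after (E19 HSTS, E19 HS, E16 HS). Kept UMIs numbered 99580051, 88733467 and 113213654.

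Cells were clustered with Seurat 5.3.0 (R 4.3.3) on 2000 variable genes less the 3 members among them, with mitochondrial share regressed, 25 components and resolution 0.25. A cluster took the name of the marker list with most genes among its 10 leading genes, then with the highest mean standardised level. It stayed unnamed with fewer than 3 markers detected in 10% of its cells, with no marker among the leading genes and a mean standardised level under 1, or with leading genes against the name. Scrublet (scanpy 1.11.5) marked 193, 0 and 198 cells as doublets and thus did not work in E19 HS, so no cells were removed in the main values. Counts were summed per library and class and divided by all UMIs. Intervals were exact (Poisson, Clopper-Pearson and conditional binomial for ratios, 95%) and computed with scipy 1.17.1. Without replicates no p-value was computed, and no count model was used. TMM factors came from edgeR 4.0.16. The scripts were tested on simulated data. No column of values was left unused.

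All 7 members are named. Of the 53 further genes, those named are up to 3 per direction past 1.5-fold with the largest ratio and at least 500 UMIs, the highest integrin and chondroitin sulfate proteoglycan partners, and any said to be named after their values were seen. For each member the 5 most similar genes are named, except for ALK and SDC1, which had too few UMIs, and 1 gene of the SDC4 list that is not reported here. The members and lists were chosen with earlier results of these data known. Alternatives were stricter cell filters, all deposited cells, no blood cells, no cells of high doublet score, thinned counts, TMM scaling, finer clusters and clusters of each library alone.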

Additional observations from a re-analysis of the deposited data

Results flagged for a closer look

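The ratio of PTN in E19 HSTS over E19 HS lay on opposite sides of 1 in different classes, at 1.35 in gut-like cells and 0.591 in cardiomyocyte-like cells. In E16 HS over E19 HS, MDK stood at 1.92 in urogenital-like cells and 0.677 in mesenchyme-like cells. In the same contrast PTN stood at 1.28 in urogenital-like cells and 0.160 in mesenchyme-like cells. Each drew attention because the 95% counting intervals of the classes lay on opposite sides of 1. The difference between classes was not tested, since there was 1 library per condition, and the mesenchyme-like values rest on 1560 cells of E16 HS against 69 of E19 HS, which mostly fell in different clusters at resolution 1.0.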

How the results depend on the processing

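Counts of members past 1.5-fold were 0 (E19 HSTS over E19 HS) and 3 (E16 HS over E19 HS) under every alternative run, and no called ratio changed sides of 1. For E19 HSTS over E19 HS the MDK ratio was 0.763 with stricter cell filters, 1.00 without blood cells, 0.768 without the highest doublet scores, 0.827 thinned and 0.809 with TMM. The PTN ratio was 0.748, 0.990, 0.822 and 0.803 with stricter filters, without blood cells, thinned and with TMM. For E16 HS over E19 HS the MDK ratio was 1.04 with all deposited cells, 0.942 without blood cells, 0.960 thinned and 0.871 with TMM, and so fell on either side of 1. The PTN ratio was 0.537 without blood cells, 0.547 thinned and 0.494 with TMM. At resolution 1.0 the highest class was the same for 3 of 6 members in E19 HSTS, and with each library clustered alone for 3 of 6 in E16 HS. The cause of these shifts was not tested. Depth limits ALK and SDC1. Replicates could not be left out, since each condition is 1 library. No paired analysis was possible because no condition has a second library.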
